A study of Mus musculus with 2 samples.

Results

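The circadian clock of mammalian cells is a transcriptional feedback loop. CLOCK, or its relative NPAS2, pairs with ARNTL (also called BMAL1) and activates genes that carry E-box sequences, among them the Per and Cry genes, whose proteins then repress the pair. The same pair activates Nr1d1 and Nr1d2, which encode the REV-ERB receptors that repress Arntl and Npas2, so that the transcripts of Arntl and Npas2 run in the opposite phase to those of Nr1d1, Dbp and the Per genes over the day. Salivary glands, like most peripheral organs, carry such a clock.

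The genes examined here were 10 genes of this loop, taken by name with all their probes, namely Arntl, Clock, Npas2, Per1, Per2, Per3, Cry1, Nr1d1, Nr1d2 and Dbp. They are 10 of the 36866 names on an Agilent mouse expression array and have 24 probes. Magnetic beads against EpCAM, a surface protein of epithelial cells, were used to take epithelial cells out of the submandibular glands of female mice of the C57BL/6 strain (C57BL/6N in the methods), and the RNA was labelled with Cy3. Before the bead selection, the methods state, the glands were minced, homogenized and digested with enzymes. There was 1 array for young mice (9 weeks) and 1 for aged mice (24 months). According to the methods, young and aged animals came from different facilities, and how many animals went into each RNA is not given in the sources used here. There was no replicate, so no difference between the ages was tested and no p-value is given. The hour at which the glands were collected is not given in the sources used here, and for transcripts that cycle over the day an effect of age, of the animals' origin and of the hour of collection cannot be told apart.

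Of the 59305 spots that were not controls, 55.4% (young) and 50.8% (aged) were well above background. Signals are the processed intensities of the scanner software, and their ± is the software's own error. Levels are log2 of the signal relative to the 75th percentile of the array, which was 256 (young) and 198 (aged). A difference is the aged level minus the young level, and its ± combines both software errors, which cover the measurement alone and leave out how mice vary. Epcam itself was at a level of 2.79 in young and 2.99 in aged cells, and both arrays measured 6 of the 7 epithelial markers. Markers of other cells were also measured. Both arrays measured 6 of 6 for macrophages and dendritic cells, 5 of 6 for fibroblasts, 5 of 5 for endothelial cells, 3 of 5 for neutrophils, 3 of the 5 on the array for T cells, 2 of 5 for B cells and 2 of 4 for plasma cells. Levels within these lists were uneven. Cd3e of T cells was at levels of 1.96 and 2.53 and Cd4 at 2.64 and 2.69, but Cd3d at -3.83 and -3.21. Cd3g was well above background in young cells alone, and Cd8a in neither. Csf3r of neutrophils was at 6.31 and 6.10, but Elane at 1.43 and 1.67 and Ly6g at -1.90 and -2.08. Mpo and Cxcr2 were well above background on neither array. A probe is called dim where it was not well above background.

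Shown first are the probes behind the largest difference among the clock genes. Of the 4 probes for Arntl, the 3 that could be measured on either array, and the single probe for Nr1d1, which encodes its repressor REV-ERB alpha, have these sequences, 5′ to 3′.
Arntl probe 1: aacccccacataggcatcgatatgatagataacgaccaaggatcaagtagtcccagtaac
Arntl probe 2: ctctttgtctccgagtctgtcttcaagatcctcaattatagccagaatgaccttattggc
Arntl probe 3: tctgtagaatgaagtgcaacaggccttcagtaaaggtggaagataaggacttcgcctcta
Nr1d1 probe: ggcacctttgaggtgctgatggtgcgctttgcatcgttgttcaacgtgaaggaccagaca
The files assign the 3 Arntl probes to the RefSeq transcript of the gene on chromosome 7 of mm9, plus strand, at chr7:120456978-120457037, chr7:120435023-120436706 and chr7:120439030-120439089. Probe 2 spans 1684 bases of the genome with 60 bases of sequence and so crosses a splice junction. The Nr1d1 probe lies on the minus strand at chr11:98630526-98631028 and also crosses a junction. All 4 have at least 1 reading frame without a stop codon on the sense strand.

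None of the 10 clock genes reached 2-fold, with 0 higher and 0 lower in aged cells. Over all 21284 genes with a probe well above background on at least 1 array, 7.67% reached 2-fold by a measured difference or a limit, 2.53% higher and 5.14% lower. Among the 18693 genes measured on both arrays, the shares were 1.51% higher and 3.04% lower. Both arrays measured 9 of the 10 genes, all but Npas2, with differences from -0.85 for Arntl to 0.34 for Cry1 and a median of -0.10. The corresponding median over those 18693 genes was 0.09, with quartiles of -0.17 and 0.34. Of the 9 clock genes, 6 were lower by any amount, against 40.1% of all genes measured on both arrays. Within the software error of 0 lay 5 of the 9 genes, and 7 lay within 2 errors. The exceptions were Arntl and Clock.

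**Figure D1:**
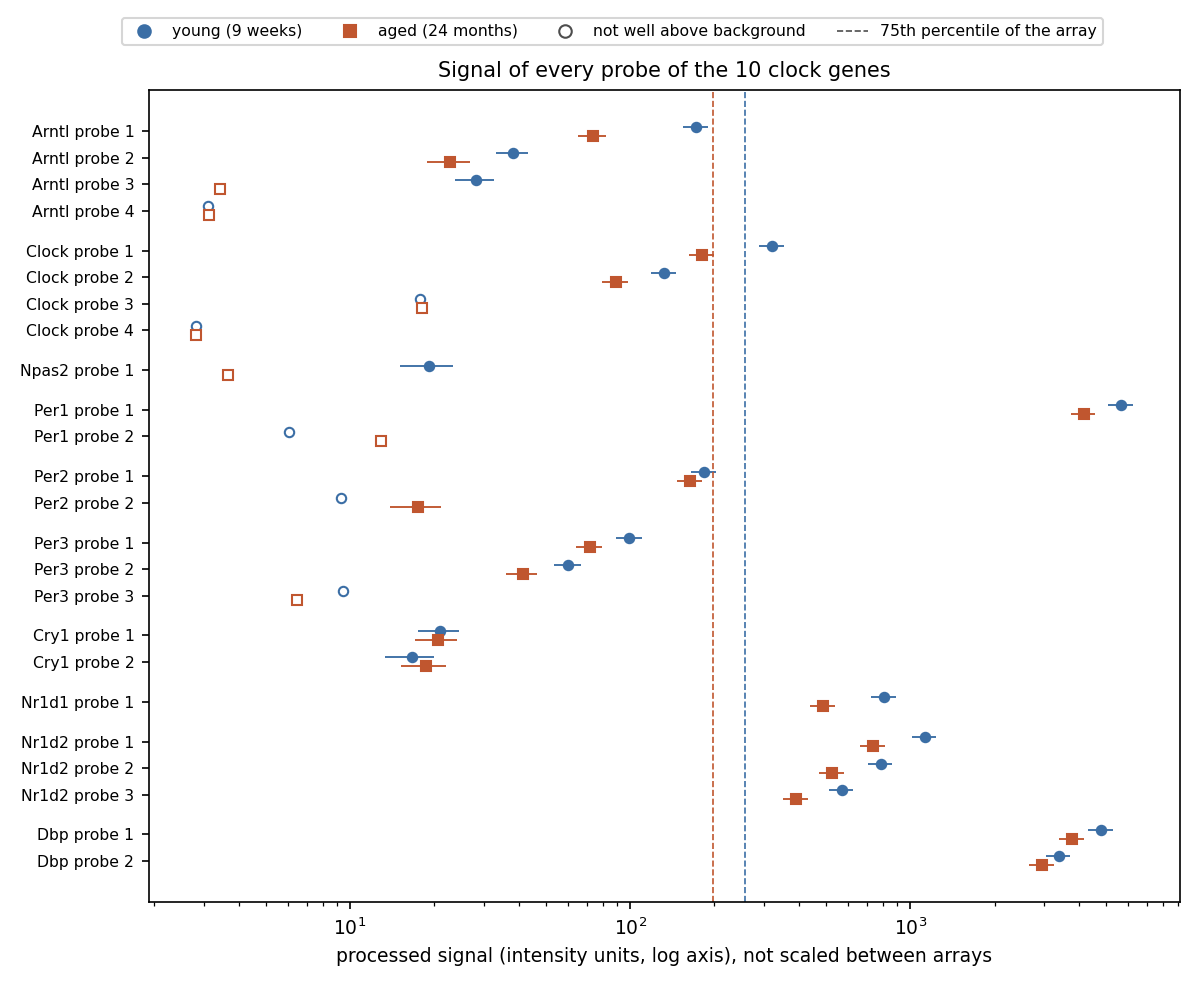
Processed signal (horizontal, intensity units, log axis, not scaled between arrays) of each of the 24 probes of the 10 clock genes on the young (circles) and the aged (squares) array, with the software error as bars where a spot was well above background. Open symbols were not well above background and the dashed lines mark the 75th percentiles, 256 and 198. The first probe of Arntl shows the widest gap among the 16 probes measured on both arrays.

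The activators come first. Arntl encodes the partner without which the loop stops. Its brightest probe had a signal of 172 ± 17.6 in young and 73.6 ± 8.25 in aged cells, that is levels of -0.58 and -1.43. The difference was -0.85 ± 0.22, or 1.80-fold lower in aged cells. Among all genes measured on both arrays, 3.96% had a lower difference. Among the 2435 genes whose mean level lay within 0.5 of that of Arntl, 6.74% did, and the 5th percentile of these was -1.06. Probe 2 had signals of 38.1 ± 4.99 and 22.7 ± 3.97 and a difference of -0.37 ± 0.31. Probe 3 was measured in young cells alone, with a signal of 28.2 ± 4.41, which puts the aged level at least 1.53-fold lower. All 3 probes that could be read were thus lower in aged cells, by unequal amounts, and the fourth was dim on both arrays. Over 8 scalings of the arrays, the difference of Arntl lay between -1.11, with the spike-in controls and past 2-fold, and -0.43.

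Clock, which encodes the DNA-binding partner of ARNTL and whose transcript cycles little in most tissues, was also lower. Its brightest probe had a signal of 322 ± 32.4 in young and 181 ± 18.4 in aged cells, a difference of -0.46 ± 0.21. A second probe had 132 ± 13.7 and 88.9 ± 9.60, a difference of -0.20 ± 0.22, and the other 2 probes were dim on both arrays. The difference of Clock lay between -0.72 and -0.28 over the scalings. Npas2, which can take the place of CLOCK, has a single probe, at chr1:39418941-39419000 of mm9. Its signal was 19.2 ± 4.15 in young cells. In aged cells it was dim, with a software substitute of 3.66 in place of a signal. Signals down to 14.3 could count as above background there, so the limit for Npas2 was a difference of -0.06 or below on the log2 scale. Only 5 of the 8 scalings gave Npas2 a limit at all, and between Arntl and Npas2, Arntl alone was measured on both arrays.

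The Per and Cry genes, repressors of the loop, differed by less than 2 software errors by their brightest probes. Per1, which is induced by light, stress hormones and many growth signals as well as by the clock, had a signal of 5669 ± 567 in young and 4164 ± 416 in aged cells. The levels were 4.47 and 4.39, a difference of -0.07 ± 0.20. Its second probe was dim on both arrays. For Per2, whose protein is a core part of the repressor complex, the brighter probe had signals of 184 ± 18.6 and 163 ± 16.6 and a difference of 0.20 ± 0.21. The dimmer Per2 probe was measured in aged cells alone, at least 1.61-fold higher there. Per3, a period gene that is not needed for the loop to run, had signals of 99.4 ± 10.4 and 71.7 ± 7.88 and a difference of -0.10 ± 0.22, and a second probe differed by -0.17 ± 0.24. Cry1, a strong repressor that peaks later in the day than the Per genes, had 2 faint probes with signals of 21.0 ± 3.54 and 20.6 ± 3.53 and of 16.7 ± 3.32 and 18.6 ± 3.44. Their differences were 0.34 ± 0.35 and 0.53 ± 0.39, with signals close to the lowest values that counted as well above background, 14.1 and 14.3. The signs of Per1, Per2 and Per3 changed between scalings, with ranges from -0.44 to 0.10, from -0.06 to 0.38 and from -0.36 to 0.08, and Cry1 stayed between 0.09 and 0.52.

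Both REV-ERB genes had differences below 0 under all 8 scalings. Nr1d1 had a signal of 807 ± 80.7 in young and 489 ± 49.0 in aged cells, a difference of -0.35 ± 0.20. Nr1d2 was measured by 3 probes whose differences were -0.24, -0.21 and -0.17. Its brightest probe had signals of 1126 ± 113 and 736 ± 73.7. Dbp, a direct target of CLOCK and ARNTL and a transcription factor that passes the rhythm on to D-box genes, is commonly among the transcripts with the widest daily swing. Its signals were 4800.3 ± 480.0 in young and 3785 ± 378 in aged cells, a difference of 0.03 ± 0.20, and the second probe differed by 0.17. The sign for Dbp changed between scalings, from -0.32 to 0.20.

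**Figure D2:**
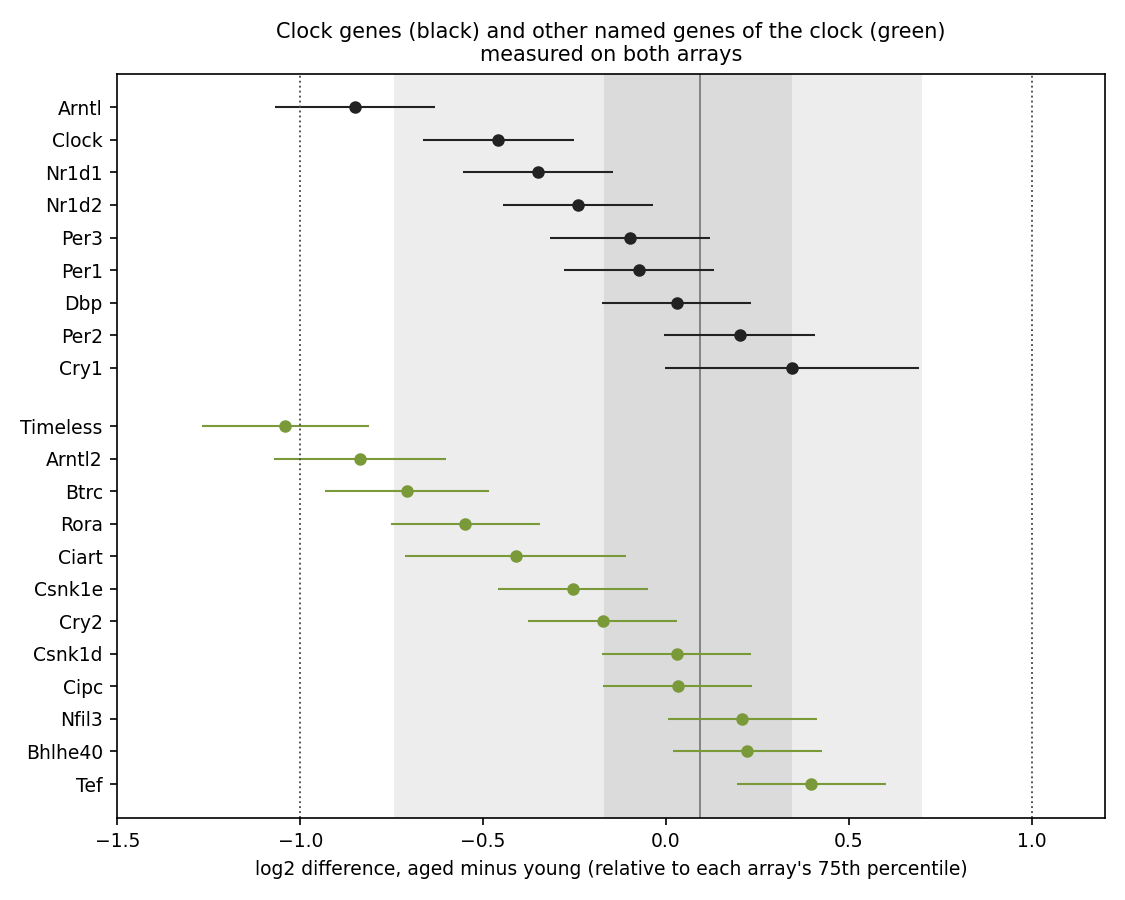
Difference in log2 level, aged minus young (horizontal), of the 9 clock genes (black) and other genes of the clock named in the text (green), all measured on both arrays, each by its brightest probe, with the combined software error as bars. Shading marks the range between the quartiles (dark) and the 5th to 95th percentiles (light) of all 18693 genes, the vertical line their median of 0.09, and dotted lines 2-fold. Arntl, at -0.85, is the lowest of the 9.

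The comparison of the opposite phases sets Arntl and Npas2 against Per1, Per2, Per3, Nr1d1, Nr1d2 and Dbp. In the known loop these sets peak at opposite times of day, and the question was whether they differed in opposite directions. In these arrays, the 6 genes of the second phase had a median difference of -0.09, with a range from -0.35 to 0.20, and Arntl, the only measured gene of the first, had -0.85. Arntl thus lay below all 6, by 0.76 ± 0.26 on the log2 scale against their median, a quantity that no constant per array can change. Scalings that depend on the signal did change it. The gap was -0.48 with quantile normalization, -0.50 with loess and -0.33 with the normexp background correction. By its brightest probe, Arntl stayed below all 6 genes under all 8 scalings. Under normexp the nearest of the 6 lay at -0.37, closer to Arntl than the software error. The size of the gap rests on that 1 probe. Arntl probe 2, at -0.37 ± 0.31, lay close to Nr1d1 at -0.35 ± 0.20. With the mean of kept probes the gap was -0.51. Relative to the median of all measured genes, Arntl was lower by any of the 8 scalings, at -0.94 to -0.53, and so were Per1, Per3, Nr1d1, Nr1d2 and Dbp, whereas Per2 was higher, by 0.04 to 0.20. With the 75th percentile, Per1, Per3 and Dbp lay at -0.17, -0.19 and -0.07 against that median, each by less than its software error. Arntl and the median of the 6 genes, -0.85 and -0.09, were both below 0 with the 75th percentile. By that scaling they did not differ in opposite directions. Among the 8 scalings, only centring on the median gave them opposite signs, -0.68 and 0.088.

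**Figure D3:**
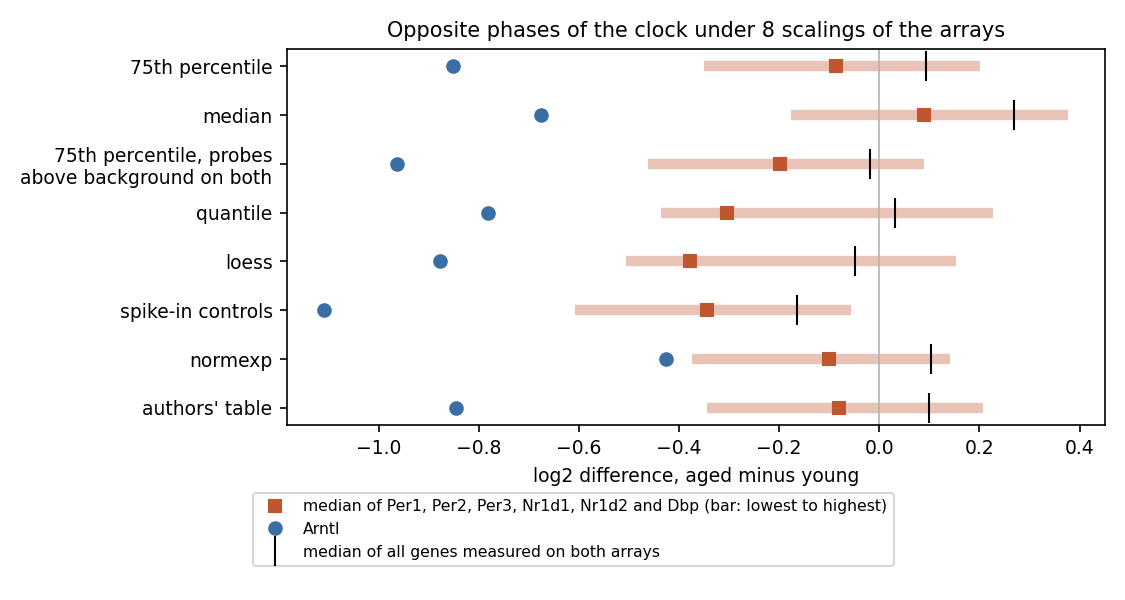
Difference in log2 level, aged minus young (horizontal), of Arntl (circles) and the median of Per1, Per2, Per3, Nr1d1, Nr1d2 and Dbp (squares, with bars from the lowest to the highest of the 6) under 8 scalings of the arrays (rows). Black ticks mark the median of all genes measured on both arrays. Arntl lies to the left of each bar, from -1.11 with the spike-in controls to -0.43 with normexp, where the bar comes closest.

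The difference of a gene depended on its brightness on these arrays, so the clock genes were also set beside genes of like level, whose mean level lay within 0.5 of theirs. Bright genes were shifted upwards, with a median of 0.31 for the 863 genes at the level of Per1 and 0.28 for the 955 genes at the level of Dbp, whereas the median was -0.03 at the level of Arntl. Seen this way, 10.9% of like genes had a lower difference than Per1, 9.82% a lower one than Nr1d1, 13% than Nr1d2, 11.5% than Clock and 19.9% than Dbp. For Per2, Per3 and Cry1, the shares were 72.2%, 43.7% and 70.9%. In all, 7 of the 9 measured clock genes lay below the median of like genes, and 0 of the 9 lay outside their 5th to 95th percentiles. Since the clock genes are ubiquitous, cells other than epithelium can add to each of these signals, and a change in the number of cells of a type and a change in RNA per cell cannot be told apart in such samples. For the macrophage and dendritic cell markers, 4 of 6 were at least 2-fold lower in aged cells, with a median of -1.21, and their signals summed relative to the 75th percentile went from 183 to 97.2. For the fibroblast markers, 4 of 6 were at least 2-fold lower, with a median of -1.44, and the sum went from 18.4 to 8.63. Single genes of other marker lists were also at least 2-fold lower. They were Cnn1 (-2.14) and Myh11 (-1.83) of myoepithelial cells, Smgc (-1.79) of the acinar list and Jchain (-1.78) of plasma cells. So were Cd79b (-2.14) of B cells and, by a limit of -1.04, Cd3g of T cells. The other genes of the acinar list lay between -0.04 and 0.51, so Smgc does not stand for acinar cells. The medians were -0.56 for endothelial and -0.39 for granular duct markers, with 4 of 5 below 0 in each and 0 past 2-fold, 0.37 for acinar, -0.02 for basal and myoepithelial, 0.56 for T cell and -0.18 for neutrophil markers. The part of any of these cells in the lower Arntl signal was not tested.

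Promoter sequences from RefSeq on GRCm38.p6 ran from 250 bases before to 50 after each annotated start. They were found for 9 of the 10 genes, with 13 starts. Per2 had no entry. They were searched for short motifs of the kinds known from the loop. A match gives the letters alone, and binding was not tested. Searched on both strands were the E-box CACGTG, which is held by 7.15% of all 32851 promoters, its variant CACGTT (4.68%), the D-boxes TTATGTAA (0.938%) and TTACGTAA (0.119%), the cores of the element for ROR and REV-ERB TAGGTCA (2.61%) and TGGGTCA (3.98%), and the cyclic AMP element TGACGTCA (1.79%). None of these motifs overlaps another in the matches found, and 5 genes had a match. They are shown 5′ to 3′ on the gene's strand with the match in capitals.
Per1: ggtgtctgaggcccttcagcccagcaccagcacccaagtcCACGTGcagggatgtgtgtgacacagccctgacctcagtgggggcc
Per3: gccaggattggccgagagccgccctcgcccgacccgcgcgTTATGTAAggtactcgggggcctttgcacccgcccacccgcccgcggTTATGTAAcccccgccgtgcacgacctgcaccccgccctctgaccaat
Cry1: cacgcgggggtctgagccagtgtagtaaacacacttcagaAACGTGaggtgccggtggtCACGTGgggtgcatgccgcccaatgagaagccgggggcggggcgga
Nr1d1: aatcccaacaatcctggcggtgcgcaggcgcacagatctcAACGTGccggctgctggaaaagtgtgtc
Arntl: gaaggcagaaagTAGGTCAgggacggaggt
These stretches lie at chr11:69098743-69098828 for Per1 (plus strand), chr4:151044776-151044910 for Per3 (minus), chr10:85185069-85185173 for Cry1 (minus), chr11:98775378-98775445 for Nr1d1 (minus) and chr7:113207529-113207558 for Arntl (plus). The E-box of Per1 begins 166 bases before its start and that of Cry1 60 bases before. Per3 holds its D-box at 205 and again at 158 bases before the start. AACGTG in Cry1 and Nr1d1 is the E-box variant read on the other strand. Arntl has the core for ROR and REV-ERB, 30 bases past one of its starts. No match in Clock, Npas2, Nr1d2 and Dbp says only that these letters are not in these windows.

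A further 18 genes of the clock were taken as a list. Both arrays measured 14 of them, with a median difference of -0.21 and a range from -1.04 to 0.40. One gene, Timeless, was at least 2-fold lower and one, Fbxl21, at least 2-fold higher, and the calls held under 5 and 7 of the 8 scalings. Timeless, a relative of an insect clock gene that in mammals serves mainly at replication forks, differed by -1.04 ± 0.23, and between -1.30 and -0.56 over the scalings. Fbxl21, which encodes a ubiquitin ligase subunit for the CRY proteins, could be measured in aged cells alone and was at least 2.47-fold higher there. The limit on the log2 scale ran from 0.58 to 1.48 over the scalings. This call rests on 1 of its 3 probes, with a faint aged signal of 26.8 ± 4.10. Signals down to 14.3 could count as above background there. The other Fbxl21 probes were dim on both arrays.

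Beside Arntl, its paralog Arntl2 was 1.79-fold lower, a difference of -0.84 ± 0.24. Rora, a receptor that activates Arntl through elements of the kind searched for above, differed by -0.55 ± 0.20, and its second probe by -0.48. Rorb, a receptor of the same kind, was dim on both arrays. Among genes of like level, 2.50% had a lower difference than Rora, the only one of the 14 further genes outside the 5th to 95th percentiles. Among the repressors, Cry2 differed by -0.17, Bhlhe40 by 0.22, Nfil3 (which competes with DBP at D-boxes) by 0.21, Cipc by 0.03 and Ciart by -0.41, and each of these 5 took either sign over the scalings. These values are of the brightest probes. A second Ciart probe, measured in young cells alone, was at least 1.91-fold lower in aged cells. The other Cry2 probes differed by -0.03 and -0.55. Bhlhe41 was not well above background. Tef, a D-box activator related to Dbp, differed by 0.40 ± 0.20, and its other probes by 0.35, 0.17 and -0.13. Hlf was not well above background. The casein kinases that phosphorylate the PER proteins differed by 0.03 (Csnk1d) and -0.25 (Csnk1e) by their brightest probes. Further measured probes differed by 0.30 and 0.62 for Csnk1d and by -0.18 and -0.01 for Csnk1e. The ubiquitin ligase subunit Btrc differed by -0.71, although the second Btrc probe differed by 0.36.

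Genes that the clock or its hormonal inputs control were then examined. Of 12 output genes, all measured on both arrays, 1 was at least 2-fold higher and 0 were lower, with a median of 0.07. Usp2, a deubiquitinase gene that cycles in most mouse organs, went from a level of 0.69 in young to 1.79 in aged cells, a difference of 1.10 ± 0.20, and its other probe was 2.05-fold higher. It passed 2-fold under 4 of the 8 scalings, with differences from 0.84 to 1.27. Alas1, the first enzyme of heme synthesis, was 1.68-fold higher, with 3 probes between 0.66 and 0.84. Of 10 genes induced by glucocorticoids, which set peripheral clocks, 1 was at least 2-fold higher and 0 were lower, with a median of 0.01 that ranged from -0.44 to 0.19 over the scalings. Zbtb16, a transcription factor gene strongly induced by glucocorticoids, was 5.48-fold higher, a difference of 2.46 ± 0.21, and passed 2-fold under all 8 scalings. Its other probe, measured in young cells alone, was at least 1.26-fold lower, so the probes of Zbtb16 went apart. The probes of Fkbp5, a chaperone of the glucocorticoid receptor, also went apart, the brightest at 0.91 ± 0.20 and another at -0.28 ± 0.24. Sgk1 differed by -0.44, and Per1 itself, which glucocorticoids also induce, by -0.07.

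The immediate early genes, to which Per1 is often counted, were bright on both arrays, with a level of 7.98 for Fos on each. Of 15, 0 were at least 2-fold higher and 0 lower, and 9 lay between the quartiles of all genes. Their median of -0.002 ranged from -0.54 to 0.17 over the scalings. Of 8 heat shock and cold-inducible genes, whose temperature response is one route by which body temperature sets peripheral clocks, 1 was at least 2-fold higher, with a median of 0.59 that lay between 0.20 and 0.76 over the scalings. It was Hspa1a, with a difference of 1.12 that passed 2-fold under 5 of the 8 scalings. Hspa1a shares nearly all its sequence with Hspa1b (0.80). The cold-inducible genes Cirbp and Rbm3 differed by -0.16 and 0.56. The part of the enzyme digestion in the levels of these genes, of the immediate early genes and of Per1 was not tested.

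**Figure D4:**
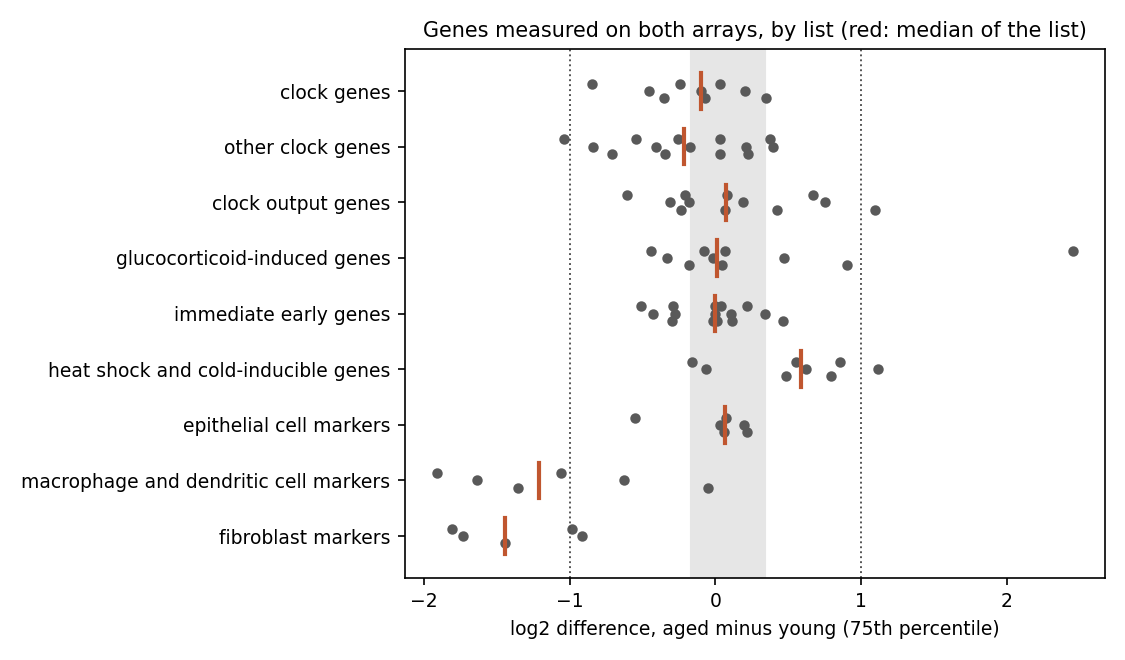
Difference in log2 level, aged minus young (horizontal), of each gene measured on both arrays (points) in 9 lists (rows), with the median of the list in red, the range between the quartiles of all genes shaded and 2-fold dotted. The clock genes spread around a median of -0.10, and the macrophage and dendritic cell and fibroblast markers lie lowest.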

How the data were processed

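The authors hybridized Cy3-labelled RNA of EpCAM-selected cells to 1 Agilent array per age. The deposited intensities come from Feature Extraction 12.0.3.1 and are, per the file headers, background-subtracted and detrended within each array. The authors' table holds the same signal divided by 1 constant per array (229 and 176). Probe coordinates are on mm9. Here, log2 intensity minus the log2 of the array's 75th percentile over non-control spots was used. Outlier spots (90 and 93) were left out, spots of a probe averaged, and the brightest probe well above background on at least 1 array stood for its gene, by the files' gene name. Where only 1 array measured a probe, its value was set against the lowest signal above background of the other array, or the probe's own if higher, which gives a limit. The threshold was 2-fold. The 10 genes, the further lists and the rule to name genes past 2-fold in them were chosen with earlier results of these data known. Alas1, Fkbp5, Sgk1, Hspa1b, Cirbp and Rbm3, under 2-fold, were named after their values were seen. Some genes of the lists are counted but not reported singly here. Names are those of the files. Dim means not well above background. The number of arrays limits precision. Over 293 probes with replicate spots, the difference had a median SD of 0.033, and 0.12 for 14 of intermediate signal. R 4.3.3 with limma 3.58.1, Python 3.11.15, numpy 2.4.6, pandas 2.3.3 and matplotlib 3.10.9 were used. The steps up to the difference were tested on simulated data, with changes set in brighter genes alone. That test did not cover the limits, dim genes or the shift with brightness.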

Additional observations from a re-analysis of the deposited data

How the results depend on the processing

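With 1 array per age, no array could be left out. No paired analysis was possible because each age has a single array. Another 12 settings were tried. For single clock genes, 94 of 108 values moved by less than the software error, 14 by more. Part of the 94 could not move, because the same brightest probe was used. These were the settings with outlier spots kept, no filter, probes measured on both arrays, or dim values raised. The authors' table shifted the median of all genes by only 0.006. None of the single clock genes reached 2-fold with the 75th percentile, and Per1, Per2, Per3 and Dbp, all near 0, took either sign. The median of Per1, Per2, Per3, Nr1d1, Nr1d2 and Dbp, -0.09, became 0.088 when centred on the median, -0.30 with quantile normalization, -0.38 with loess and -0.34 with the spike-in controls. The value for Arntl and Npas2, -0.85, became -1.11 with the spike-in controls, -0.43 with normexp, -0.61 as the mean of kept probes, and, with Npas2 included, -1.43 without a filter and -0.45 with dim values raised to the lowest signal well above background. The gap between both, -0.76, became -0.48 with quantile normalization, -0.50 with loess, -0.33 with normexp, -1.35 without a filter and -0.37 with dim values raised. The count of clock genes at least 2-fold lower, 0, became 1 with the spike-in controls (Arntl) and 1 without a filter (Npas2, by a substitute value). Over all genes, 538 were higher and 1094 lower, a share of 33.0% higher, which was 48.0% when centred on the median and 17.8% with the spike-in controls. The counts were 182 and 297 with normexp and 1680 and 2398 without a filter. The median of all measured genes moved by 0.17 when centred on the median, -0.26 with the spike-in controls, -0.11 with the 75th percentile over probes measured on both arrays and -0.14 with loess. Signal over background limits Npas2 and Cry1 most.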
